A study of Mus musculus with 6 samples.

Results

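The genes described are the mouse elongases of very long fatty acids, *Elovl1* to *Elovl7*, with the ketoacyl reductase *Hsd17b12* and the enoyl reductase *Tecr* that complete the same cycle. They were chosen by symbol, and all 9 are listed among the 19078 genes of the authors' deposited table. Immortalized mouse fibroblasts (MF) were profiled by RNAseq of poly(A)-selected RNA in 6 libraries, of which 3 were *Ms4a15* OE and 3 control. The MF line is a male embryonic fibroblast line with a conditional *Gpx4* knockout and Cre-ERt2, a Cre recombinase switched on by tamoxifen, and both groups share this background. *Ms4a15* OE cells are a pooled line in which a CRISPR activation system and 1 guide raise transcription of *Ms4a15* from its own locus. Control cells are labelled wild type, whereas the study's methods describe them as infected with empty lentivirus.

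For each gene the table gives the mean of the normalised read count over all 6 libraries, that is, of counts divided by a factor that corrects for library depth. This is the authors' mean of both groups together, so it has no SD and does not show how *Ms4a15* OE and control cells differed. The authors' own comparison of the groups was not used, and no test of *Ms4a15* OE against control could be run on the means. The level of the targeted gene *Ms4a15* was not analysed here. Levels below therefore describe MF cells of both kinds pooled. Intervals given with a level cover the error of counting reads and not the variation between cultures.

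Fatty acids are lengthened in the membrane of the endoplasmic reticulum by a repeating cycle. An ELOVL enzyme condenses the acyl chain with malonyl-CoA, a ketoacyl reductase and a dehydratase act next, and an enoyl reductase closes the round with a longer chain. The ELOVL enzymes differ in the chains they accept, whereas the later steps are shared, and the products enter phospholipids, sphingolipids and, in other tissues, wax and storage lipids.

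Short sequences are printed for the site where the perturbation was made and for the assay of the most abundant gene. Others, from before RefSeq start sites of some of the genes, were chosen by their letters. All run 5′ to 3′. The guide site is shown to place the activation, with its PAM in capitals, and it lies on chromosome 19 at chr19:10993358-10993380, minus strand, in GRCm38.p6. The guide without its PAM covers bases 130 to 111 before the RefSeq start of *Ms4a15*.
Ms4a15 guide: aaagactgaagcaagggactGGG
The primers that the study designed for *Hsd17b12* mRNA are shown because they mark where this transcript was assayed. They match positions 534 to 553 across exons 5 and 6, and positions 621 to 645 across exons 7 and 8, for a product of 112 bases.
Hsd17b12 forward primer: attcccgacttggacaacac
Hsd17b12 reverse primer: tcacccctttagatctttctaccat

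Stretches upstream of the RefSeq start sites of *Hsd17b12*, *Elovl1*, *Elovl5* and *Tecr* are shown because they hold the letters CCAAT or their reverse complement ATTGG. These letters are in capitals, and the stretches were chosen by them and not by level. A stretch of *Elovl2*, the gene with the lowest mean, is shown for its density of CpG dinucleotides, which are in capitals. The sequences come from RefSeq on GRCm38.p6 and lie outside annotated exons. That of *Tecr* precedes a start site within the gene and lies inside the annotated span of *Tecr*.
Hsd17b12, chr2:94158024-94158098, minus strand: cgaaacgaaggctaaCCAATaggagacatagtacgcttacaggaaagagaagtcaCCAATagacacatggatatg
Elovl1, chr4:118428043-118428077, plus strand: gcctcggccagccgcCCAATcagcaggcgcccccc
Elovl5, chr9:77917279-77917362, plus strand: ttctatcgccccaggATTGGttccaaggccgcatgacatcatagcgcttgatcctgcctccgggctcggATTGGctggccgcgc
Tecr, chr8:83594494-83594642, minus strand: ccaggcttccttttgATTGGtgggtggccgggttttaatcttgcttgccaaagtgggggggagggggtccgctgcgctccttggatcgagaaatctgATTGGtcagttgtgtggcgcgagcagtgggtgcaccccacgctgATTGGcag
Elovl2, chr13:41220423-41220522, minus strand: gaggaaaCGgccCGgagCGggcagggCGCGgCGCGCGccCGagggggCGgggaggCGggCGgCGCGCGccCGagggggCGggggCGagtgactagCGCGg

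The cells had the transcripts of fibroblasts. Of 12 fibroblast markers, 11 had a mean of at least 10 normalised read counts, among them *Col1a2* with 135155 and *Vim* with 115135, while *Dcn* had 12.1 and *Lum* 0.675. Of 24 markers of epithelial, endothelial, blood, fat and liver cells, 21 were listed, all but *Cd3e*, *Lep* and *Ttr*. Of the listed ones, 8 had a mean of at least 10. A mean of at least 100 was found for 3, namely *Krt14* with 170, *Cd68* with 164 and *Cdh5* with 107. Over all 19078 genes, 12914 had a mean of at least 10 and 10440 of at least 100. The defining markers *Epcam* and *Alb* had means of 0.176 and 0.163, each equal to 1 read in 1 library, and the part of other cells in the levels below was not tested. The library factors recovered from genes with 1 read ranged from 0.887 to 1.14, so depth differed little between the 6 libraries. Summed over the table the means came to 40991755 normalised read counts, and their median was 237.

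Of the 9 genes, 8 had a mean of at least 10, as did 12914 of all 19078 genes. A mean above the median of the table, which splits all genes evenly, was found for 6 of the 9. The highest was *Hsd17b12* and the lowest *Elovl2*, which was close to absent. The plot of means by gene shows 5 genes at 1541 or more, with *Elovl6* nearest the median and *Elovl3*, *Elovl7* and *Elovl2* under it.

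**Figure D1:**
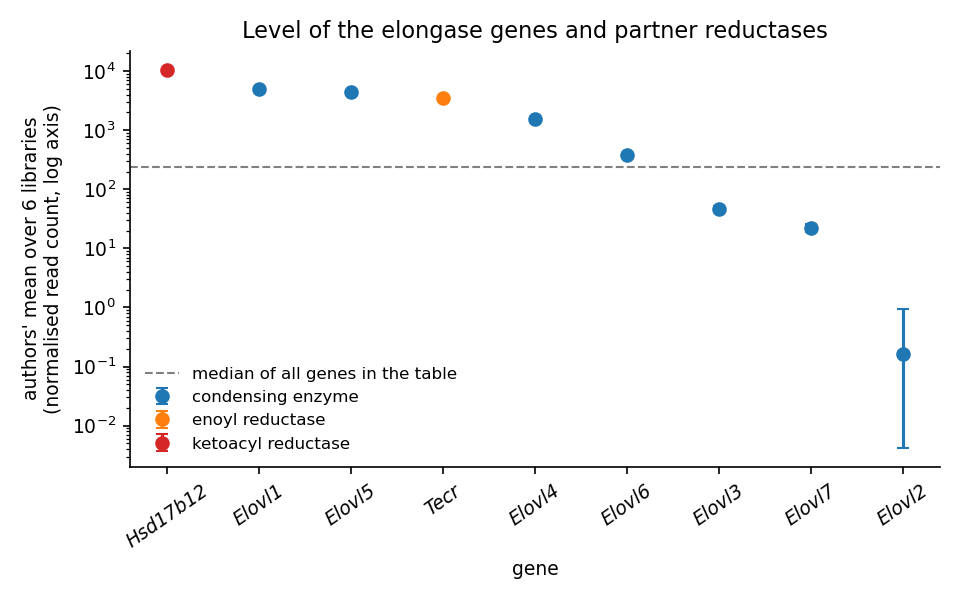
Each point is the authors' mean normalised read count of a gene over 6 libraries, on a log axis, coloured by step of the cycle, with bars for the 95% interval from counting reads and a dashed line at the median of all 19078 genes, 237. Hsd17b12 stands highest at 10507, and Elovl2 lowest at 0.163, the only gene whose bar is wide.

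*Elovl1*, which lengthens saturated and monounsaturated chains that go into sphingolipids, had the highest level of the 7 condensing enzymes. Its mean was 5025 normalised read counts, with a counting interval of 4968 to 5082, which placed it at percentile 89.9 of the table. *Elovl5*, which lengthens polyunsaturated chains made from the essential fatty acids, followed with 4466, between 4413 and 4520, at percentile 88.3. The counting intervals of these genes did not overlap, but whether their difference exceeded the variation between cultures could not be tested.

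*Elovl4*, known for making the longest chains and for its part in inherited macular disease, had a mean of 1541, between 1510 and 1573, at percentile 71.5, the middle value of the 9 genes. *Elovl6*, which lengthens palmitate to stearate and so supplies the substrate of stearoyl-CoA desaturases, had a mean of 383, between 367 and 399, at percentile 53.7. It therefore stood 1.62 times above the median of all genes, against 21.2 times for *Elovl1*.

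*Elovl3*, a gene best known from brown fat, skin and liver, had a mean of 46.4, which corresponds to about 278 reads over all libraries. *Elovl7*, which acts on saturated chains, had 22.2, or about 133 reads. Both passed the minimum of 10 and stood below the median of the table, at percentiles 41.4 and 37.2. Their counting intervals, 41.1 to 52.2 and 18.6 to 26.3, did not overlap.

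*Elovl2*, which extends polyunsaturated chains beyond the reach of *Elovl5* and is abundant in liver, had a mean of 0.163. A single read in 1 of the 6 libraries gives exactly 1 of 6 possible means between 0.147 and 0.188, and the value of *Elovl2* is 1 of these. The same mean was listed for 241 other genes. A count of 1 has an exact 95% interval from 0.0253 to 5.57 reads in all libraries together, so *Elovl2* mRNA at a low level would not be detectable at this depth. *Elovl2* and *Elovl5* share substrates in the synthesis of long polyunsaturated chains, and in MF cells the read count of that pair was almost wholly that of *Elovl5*.

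The shared steps had high levels. *Hsd17b12*, the ketoacyl reductase of the cycle, had a mean of 10507, between 10425 and 10589, and ranked 744 of 19078 genes at percentile 96.1. *Tecr*, the enoyl reductase that ends each round, had 3533, between 3486 and 3581, at percentile 85.1. No second gene for the ketoacyl reductase was in the list used, and the *Tecr*-like gene *Tecrl* was not listed under the symbols searched.

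Longer transcripts yield more reads, so levels of different genes were compared per kilobase of transcript. On that scale *Hsd17b12* had 5524 normalised read counts per kb, *Tecr* 3051, *Elovl1* 2775 and *Elovl5* 1605. *Elovl4* followed with 514, *Elovl6* with 64.3, *Elovl3* with 24.7, *Elovl7* with 5.54 and *Elovl2* with 0.0425. *Tecr*, whose transcript of 1158 bases is the shortest of the 9, moved from place 4 by mean to place 2 per kb, while *Elovl6*, with the longest at 5951 bases, stayed at place 6.

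The level per kb of *Elovl1* was 1.73 times that of *Elovl5*, and that of *Elovl5* was 3.13 times that of *Elovl4*. The gap between *Elovl4* and *Elovl6* was 7.98 times by transcript length and 8.55 times by joined exons but 3.45 times by coding length, where that between *Elovl6* and *Elovl3* was wider, at 8.37 times. From *Elovl1* to *Elovl7* the level per kb spanned 501 times, against 333 times by joined exons and 228 times by coding length. Of the level per kb summed over the 7 condensing enzymes, *Elovl1* held 55.6%, *Elovl5* 32.2% and *Elovl4* 10.3%. *Elovl6* held 1.29%, *Elovl3* 0.495% and *Elovl7* 0.111%, and by coding length *Elovl6* held 3.62% and *Elovl7* 0.20%. *Elovl1* and *Elovl5* together thus made up 87.8%, and 83.3% when coding length was used in place of transcript length.

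**Figure D2:**
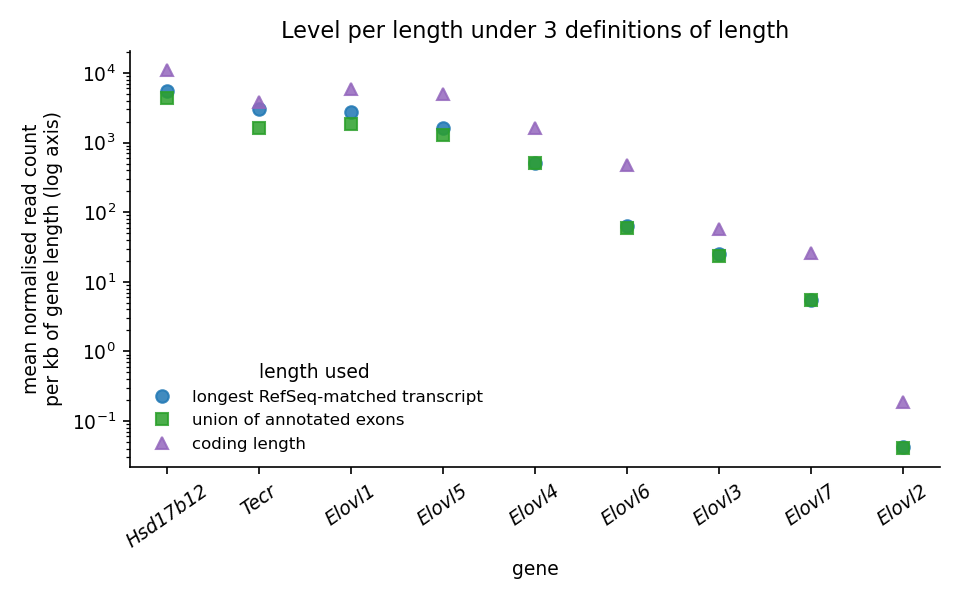
Mean normalised read count per kb on a log axis for the 9 genes, divided by the length of the longest RefSeq-matched transcript, of all annotated exons joined, or of the coding sequence. The 5 genes from Elovl4 to Elovl2 keep their order under each length, whereas Tecr takes place 2, 3 or 4.

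*Hsd17b12* came first under each of the 3 lengths. *Tecr*, *Elovl1* and *Elovl5* changed places, since *Tecr* took place 2 by transcript, 3 by joined exons and 4 by coding length. *Elovl1* stood above *Elovl5* in all 3, and *Elovl4*, *Elovl6*, *Elovl3*, *Elovl7* and *Elovl2* followed in that order.

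The summed level per kb of the condensing enzymes was 4988. Which of this sum and *Hsd17b12* was higher turned with the length used, since *Hsd17b12* had 1.11 times the sum by transcript and 1.18 times by joined exons, whereas by coding length the sum was 1.17 times *Hsd17b12*. The sum exceeded *Tecr* under each length, by 1.63 times for transcripts, 2.30 for joined exons and 3.45 for coding length. The dehydratases, which act between the 2 reductases, summed to 3269 per kb of transcript, or 1.07 times *Tecr*, against 1.46 times by joined exons and 1.91 times by coding length. Among them *Hacd1* had a level of 1661 per kb of transcript, *Hacd3* 1109, *Hacd2* 483 and *Hacd4* 16.0, under the older symbols *Ptpla*, *Ptplad1*, *Ptplb* and *Ptplad2*. By joined exons and by coding length *Hacd3* stood highest of the dehydratases, at 1109 and 2759 per kb.

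The surrounding pathway was described with a list of 48 genes that includes the 9. Of these, 44 are listed in the table and 40 had a mean of at least 10 normalised read counts, as did 12914 of all 19078 genes. All 7 desaturases, which insert double bonds between rounds of elongation, were listed. *Scd2*, a stearoyl-CoA desaturase, had 8844 per kb, which was 3.19 times the level of *Elovl1*, and 4.79 times by joined exons and 7.49 times by coding length. *Scd1* had 1695, and the desaturases of polyunsaturated chains, *Fads1* and *Fads2*, had 2180 and 1138. *Scd3* and *Scd4* had 5.78 and 3.30. *Fads2*, *Elovl5* and *Fads1*, which act in turn on the essential fatty acids, thus lay between 1138 and 2180 per kb of transcript.

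Malonyl-CoA, the donor of the added carbons, is made by acetyl-CoA carboxylases. *Acaca* had a level of 1101 per kb and *Acacb* 41.0. *Mlycd*, which degrades malonyl-CoA, had a mean of 4.94 and did not reach 10. Ceramide synthases join long chains to sphingoid bases. *Cers5* had 5151 per kb and *Cers2*, which prefers very long chains, had 4658, while *Cers6* had 302, *Cers4* 83.0 and *Cers3* 3.67. These are listed under the older symbols beginning with *Lass*, and *Cers1* was not listed under the symbols searched.

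*Abcd3*, a carrier of acyl-CoA in the peroxisomal membrane, had a level of 694 per kb. Of 8 acyl-CoA synthetases, 6 had a mean of at least 10, with *Acsl5* highest at 2417 per kb, and *Slc27a2* and *Acsl6* had means of 0.366 and 0.339. Of the 6 listed regulators that are known to act on lipogenic genes, *Srebf2* was the highest with 1989 per kb. *Nr1h3* had a mean of 12.9, and *Mlxipl* and *Ppara* were not listed under the symbols searched.

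**Figure D3:**
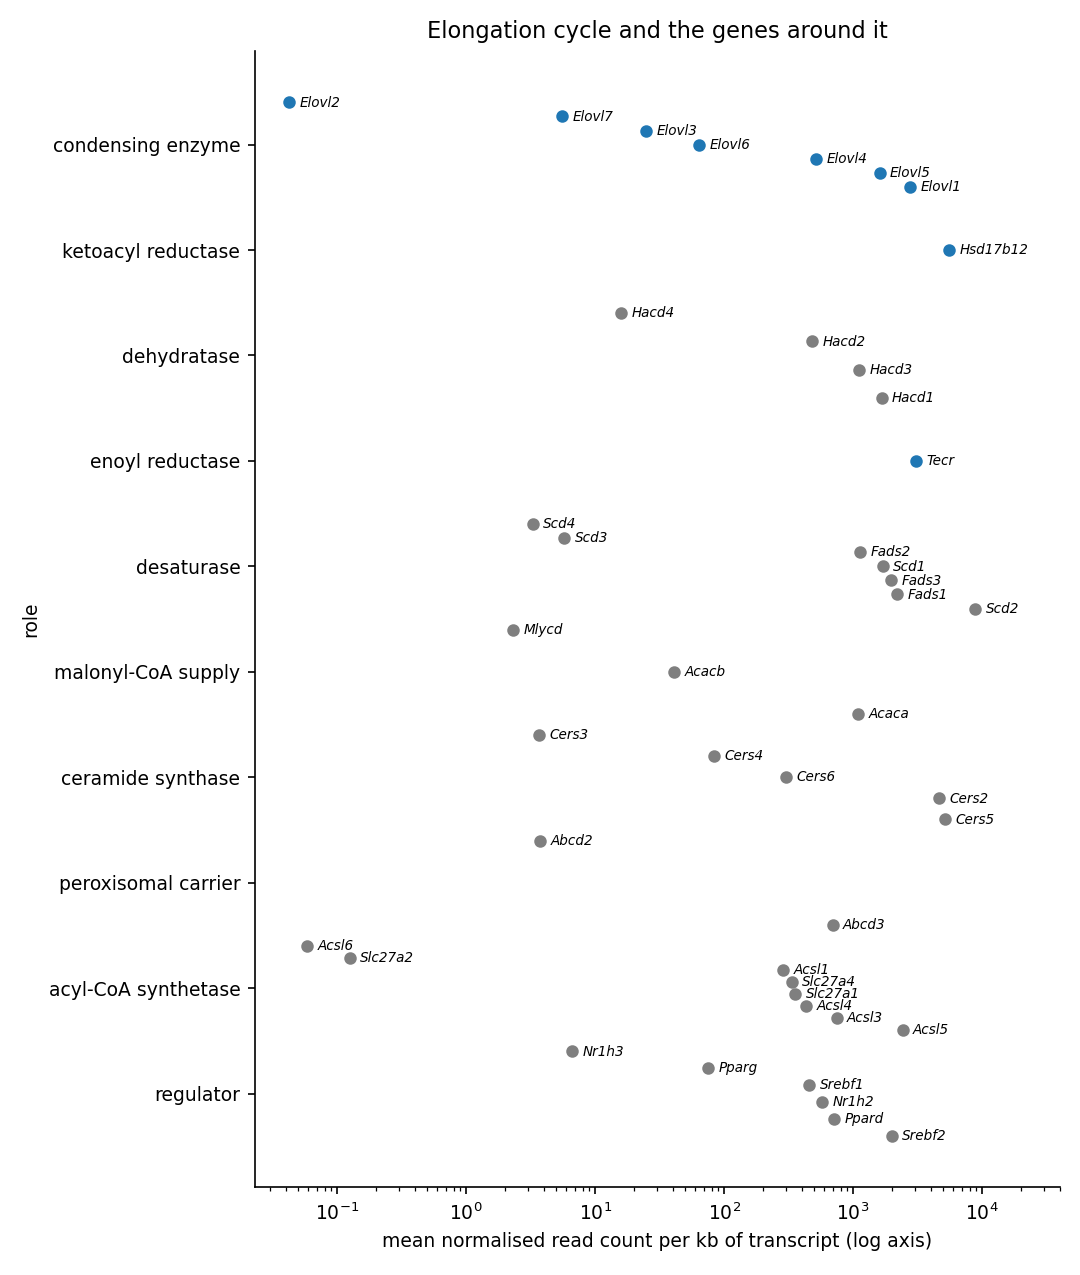
Mean normalised read count per kb of transcript on a log axis for the 44 listed genes of the elongation pathway, by role. The 9 elongases and reductases are blue and the other genes grey. The condensing enzymes run from Elovl2 at 0.0425 to Elovl1 at 2775, and the highest of all is the desaturase Scd2 at 8844.

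The genes are spread over 7 chromosomes of GRCm38 and differ in structure. *Elovl4* at chr9:83778692-83806277 and *Elovl5* at chr9:77917364-77984519 share chromosome 9, and *Elovl2* at chr13:41182381-41220405 and *Elovl7* at chr13:108214404-108285683 share chromosome 13. *Elovl1* lies at chr4:118428093-118432953, *Elovl3* at chr19:46131897-46135694 and *Elovl6* at chr3:129532355-129638495. *Tecr* lies at chr8:83571698-83607971 and *Hsd17b12* at chr2:94032689-94157964. *Elovl3*, with 4 exons, and *Elovl1*, with 8, span 3.80 and 4.86 kb, whereas *Hsd17b12*, with 11 exons, spans 125 kb and *Elovl6*, with 5, spans 106 kb. The coding lengths of the condensing enzymes lay close together, from 804 bases in *Elovl6* to 939 in *Elovl4*. The lengths of their transcripts thus differ mainly in the untranslated part.

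The transcripts were searched for runs of identical bases, since reads from such runs cannot be assigned to 1 gene. No run of 50 identical bases was shared between transcripts of the 9 genes. Runs of 100 bases were shared with other annotated transcripts at 1.89% of positions in *Tecr*, with Gm48016 and Gm47441, and at 0.974% in *Elovl6*, with Gm11295. For the other 7 genes the share was 0. At 50 bases it was 12.0% in *Tecr* and 4.59% in *Elovl6*. The study's methods give paired-end reads of 100 bases, whereas the sample labels give longer ones. Both are longer than a run of 50. How far the shared runs affected these levels was not tested. Of the *Elovl1* transcript, 53 bases, or 2.93%, lie over exons of *Cdc20* on the opposite strand. Of the *Elovl3* transcript, 10 bases lie over *Pitx3*, also on the opposite strand. Whether the authors counted reads by strand is not given in the sources used here.

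Of the 9 genes, 8 were matched to 10 RefSeq promoter windows, of which the 250 bases before the start were read, and *Elovl3* was not. *Elovl1* and *Elovl2* have 2 windows each. Some windows precede a RefSeq start that lies within the annotated gene. The *Tecr* window, chr8:83594492-83594741, and the *Elovl1* window with 5 CpG, chr4:118429451-118429700, lie inside the span of the gene. The *Elovl2* window with 42 CpG, chr13:41220163-41220412, lies mostly inside it. The windows differed widely in base composition. *Elovl2*, the gene with 1 read, had the window richest in CpG. It held 49 CpG, a number above that of 99.9% of 32851 windows of mouse genes, and 87.2% G and C. Its other window held 42. The median over all windows was 6 CpG and 52.4% G and C.

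*Elovl4* and *Elovl7* had 25 CpG each, at means of 1541 and 22.2. *Hsd17b12*, with the highest mean, had 20, *Tecr* 17, *Elovl5* 14 and *Elovl6* 11, and the windows of *Elovl1* held 18 and 5. The number of CpG in these windows thus did not follow the order of the levels, as the plot of CpG against level shows.

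**Figure D4:**
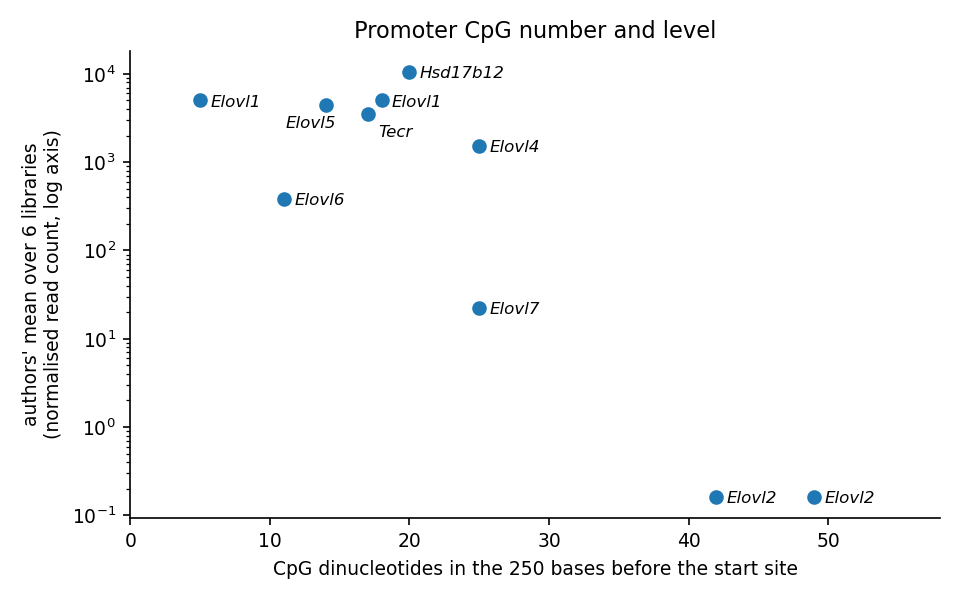
Number of CpG dinucleotides in the 250 bases before each RefSeq start site against the authors' mean normalised read count of the gene, on a log axis, for 10 windows of 8 genes. Elovl4 and Elovl7, with 25 CpG each, differ in level, and the 2 windows of Elovl2 lie far to the right at a mean of 0.163.

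A search on both strands found CCAAT in 1 window each of *Elovl1*, *Elovl5*, *Tecr* and *Hsd17b12*, and the other window of *Elovl1* held 0. This is 4 of the 10 windows, a share near the 33.8% of all windows. *Tecr* held 3 copies, *Elovl5* and *Hsd17b12* 2 each and *Elovl1* 1, as printed above. GGGCGG was found in 7 of the 10 windows, from 6 genes, against 32.7% of all windows, and CACGTG in *Elovl5* alone, against 6.02%. TATAAA was found in 0 of the 10 windows and in 12.4% of all windows. All of the 10 windows but that of *Hsd17b12* held more G and C than the median window, 52.4%. GGGCGG is made only of these bases, and its share was not adjusted for base composition. These are matches of letters in a fixed window, and no binding was measured.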

How the data were processed

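Per the study's methods, reads were aligned to mm10 with STAR and assigned to genes with HTSeq-count, and the authors normalised and compared the 6 libraries with DESeq2. The submitters' processing notes also name TopHat, Cufflinks and Cuffdiff. In the deposited table the authors give 1 signal per gene, the average of its size-factor-corrected counts in the 6 libraries. Its other columns hold the authors' own fold changes, standard errors, p-values and directions and were not used. Since no values of separate libraries were used here, the tests planned on them, edgeR and limma among them, were not run.

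The 9 genes and the lists were chosen with earlier results of these data known. The genes named are these 9, the elongation pathway list, the cell type markers and *Ms4a15* (1 further gene planned for the pathway list is not reported here). Genes with a mean of at least 10 were taken as detected, and 1 and 100 were tried. The approximate number of reads is the mean divided by 0.167, the average mean that 1 read in 1 library gives. Exact Poisson 95% intervals were taken from it and cover counting error only. Lengths came from GENCODE M21 on GRCm38, from the longest protein-coding transcript with a RefSeq match. Percentiles give the share of genes with a lower mean. Promoter windows came from RefSeq on GRCm38.p6. Of these steps, only the recovery of the values that 1 read gives was tested on simulated counts. Python 3.11.15, numpy 2.4.6, pandas 2.3.3, scipy 1.17.1 and matplotlib 3.10.9 were used.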

Additional observations from a re-analysis of the deposited data

How the results depend on the processing

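The levels are means over both groups, so neither replicate error nor a difference between *Ms4a15* OE and control is given, and the planned edgeR, DESeq2 and limma tests, the left-out replicates and the protein alignments were not run. No paired analysis was possible because the means carry no replicate numbers. The median percentile of the 9 genes was 71.5 over all genes, 66.0 over genes with a mean of at least 1 and 57.9 over those of at least 10. Over genes of at least 100, a choice made after seeing the data, it was 48.0. Each step leaves out genes of low level, which lowers a percentile by construction. *Elovl1* and *Elovl5* together held 87.8% of the summed level per kb of the condensing enzymes by transcript length, 83.3% by coding length and 83.9% by joined exons, the last chosen after seeing the data. Of the markers of other cell types, 8 were detected at a minimum of 10, 14 at a minimum of 1 and 3 at a minimum of 100. The numbers of detected elongases and reductases, of pathway genes and of fibroblast markers moved by less than 1.5 times under the same minimums. *Elovl2* rests on 1 read, so its place is limited by depth.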
